A study of Mus musculus with 4 samples.

Results

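The transcriptome of wild-type (WT) resting follicular B cells was described from the 2 WT RNA-seq libraries of a series of 4, and the 2 Ets1-/- libraries of the series were not used here. Both libraries came from the spleens of female C57BL/6 mice of wild-type genotype, with no treatment named. Live cells were sorted as B220+, CD23 high and CD21 low, and negative for CD80 and for surface IgA, IgE and the IgG isotypes, a gate that the study used for quiescent follicular B cells. The study's methods call the libraries biological replicates. The age of the mice and the number of mice behind each library are not given in the sources used here, so the spread between the libraries may in part be technical.

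The genes described were the protein-coding entries of the deposited tables, chosen by annotation and ranked by their mean level in the 2 WT libraries. They numbered 20554 of the 23309 entries in each table. The level is FPKM, the fragments assigned to a gene divided by the length of its transcript and by the mapped fragments of the library, so that it is scaled for transcript length and can be set side by side between genes. Where a pair of levels is given for a gene, the first is WT replicate 1 and the second is WT replicate 2, both in FPKM, and a mean is given with its SD (n = 2). With a single group there was nothing to test, so levels, ranks and the spread between the libraries are described and no p-value is given. A low level in sorted cells can come from few cells or from little RNA per cell, and bulk libraries cannot tell these apart.

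Follicular B cells are the recirculating, long-lived majority of mature splenic B cells. They rest until antigen binds the B cell receptor, a surface immunoglobulin paired with the signalling chains Cd79a and Cd79b, and they present peptides of that antigen to T cells on MHC class II. Their survival depends on BAFF and on basal receptor signalling, and chemokine receptors hold them in the follicle. They divide and differentiate only after activation, and in the resting state they are small cells with little cytoplasm.

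The ranked genes spread over a wide range of levels. A mean of at least 1 FPKM was reached by 9970 genes, which were 48.5% of those ranked, and 9813 of them were at that level in both libraries. At least 10 FPKM was reached by 6257 genes, at least 100 by 725 and at least 1000 by 100, while 5382 genes were listed at 0 in both libraries. The 100 highest genes held 43.9% and 48.8% of the summed FPKM, and 95 of the top 100 were the same in both. Of those 100 genes by mean level, 67 encoded cytosolic ribosomal proteins. The plot of level by rank shows the MHC class II and B lineage genes on its upper shoulder and most progenitor genes on its steep lower end.

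**Figure D1:**
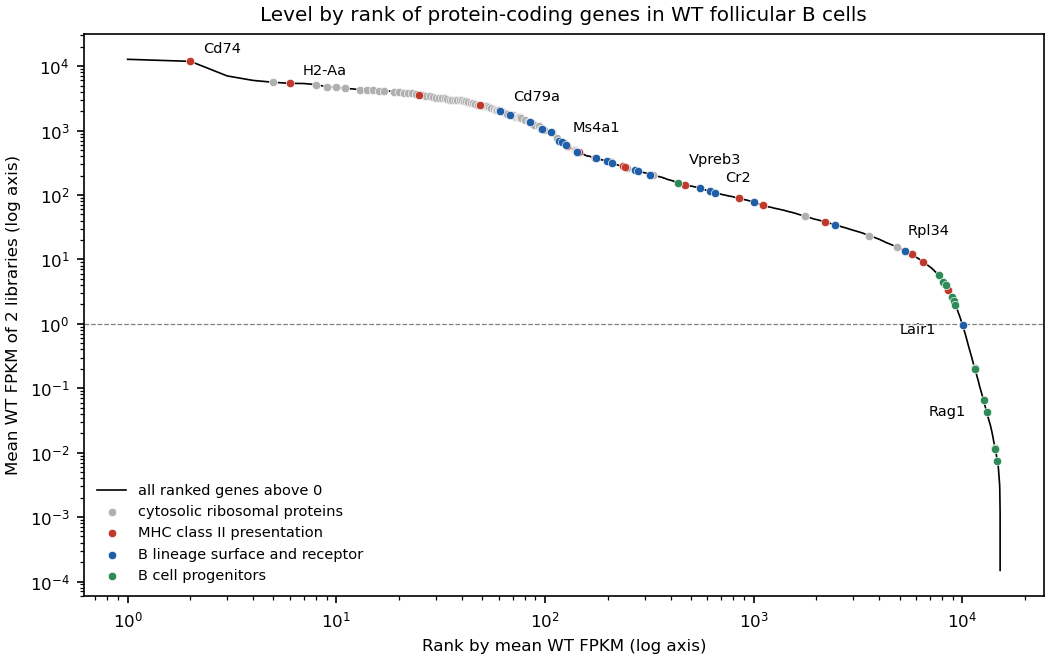
Mean WT FPKM of each ranked gene above 0 (vertical log axis) against its rank (horizontal log axis), with the members of 4 gene lists as coloured points and the level of 1 FPKM as a dashed line. Cd74 stood at rank 2 and Cd79a at rank 61, and most cytosolic ribosomal protein genes lay within the first 100 ranks, while Rag1 was at rank 13076.

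The 2 libraries gave nearly the same order of genes. Over the 9970 genes with a mean of at least 1 FPKM, Pearson's r on the log2(FPKM + 1) scale was 0.992, a correlation across genes, which are not independent replicates. The median absolute difference between the libraries was 0.12 on that scale, and 48 genes differed at least 2-fold, 37 of them higher in replicate 2. Among genes with a mean of at least 10 FPKM, the gap followed transcript length: the median ratio of replicate 2 to replicate 1 was 1.27 for genes under 500 bases of exon and 0.972 for those of 4000 bases or more. The number of reads is not in the files. The steps between the lowest values placed the depth of replicate 2 at about 1.75 times that of replicate 1.

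The 10 genes with the widest gap between libraries, among those with a mean of at least 10 FPKM, were all higher in replicate 2. Rps27 stood first at 45.2 and 363, followed by Pmaip1, a pro-apoptotic BCL2 family member, at 11.2 and 41.8. Fosb, an immediate early transcription factor, was at 64.5 and 206. Rgs1, a brake on chemokine receptor signalling, was at 19 and 61.7, and Dnajb9, a chaperone of the endoplasmic reticulum, was at 18.5 and 59.5. These were followed by Klf6, Cd69, Cebpb, Gm129 and Hist1h2bc, with gaps from 1.33 to 1.61 on the log2(FPKM + 1) scale. The scatter of replicate 2 on replicate 1 shows immediate early genes above the diagonal and most macrophage genes below it.

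**Figure D2:**
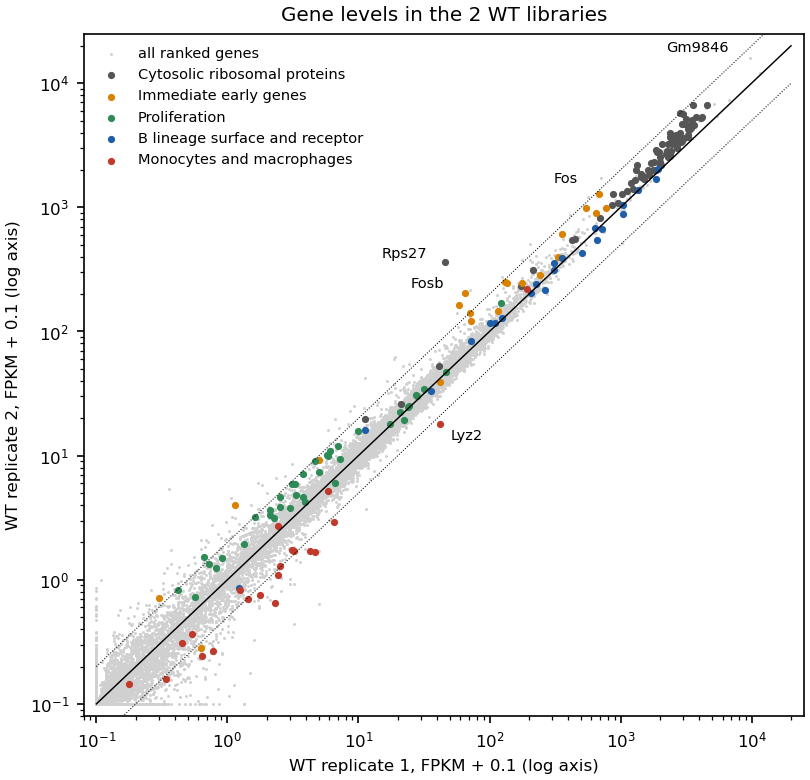
FPKM of each ranked gene in WT replicate 2 against WT replicate 1, both on log axes with 0.1 added, with the members of 5 gene lists in colour, the line of equal levels solid and 2-fold differences dotted. B lineage genes lie near the line, all 77 ribosomal protein genes lie above it, and Rps27 (45.2 and 363) is farthest from it among genes with a mean of at least 10 FPKM.

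The label of the cells was checked against 5 markers. Cd79a, the alpha signalling chain of the B cell receptor, stood at 1923 and 2051 (mean 1987 ± 90.3, rank 61). Ms4a1, which encodes CD20, was at 637 and 678 (mean 658 ± 28.7, rank 121), and Cd74, the MHC class II invariant chain, was at 11572 and 12157 (mean 11864 ± 414, rank 2). None of these 3 was part of the gate. Fcer2a, which encodes CD23, was at 664 and 544, and Cr2, which encodes CD21, was at 102 and 116. Because the cells were sorted as CD23 high and CD21 low, these levels describe the gate and are not findings, and the same holds for Ptprc (B220) at 309 and 311 and Cd80 at 0.502 and 0.376. The female label was checked with the X-inactivation RNA Xist, which was at 41.7 and 54.7, while the Y-linked genes Ddx3y, Kdm5d and Eif2s3y were listed at 0 in both libraries.

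Surface proteins of the B lineage were among the highest lists apart from the ribosome. The 22 genes found of this list had a median of 323 FPKM, beside a median of 0.733 over all ranked genes and of 15 over the genes with a mean of at least 1, and 18 of the 22 stood at 100 FPKM or more. Fcer2a, Cr2 and Ptprc, whose levels describe the gate, are counted among those 18. Cd79a was followed by its partner chain Cd79b at 1855 and 1695. Ly6d, a surface protein of committed lymphoid cells, was at 1348 and 1371, and the tetraspanin Cd37 was at 1049.8 and 1038. Faim3, an older symbol for the Fc receptor of IgM, was at 1040.2 and 883. The libraries differed little here, with 12 of the 22 genes higher in replicate 2. At the lower end stood Cd38 at 71.7 and 83.5, Cd200 at 35.9 and 33.2 and Fcrl5 at 11.1 and 16, and Lair1, an inhibitory collagen receptor, was the single member under 1 FPKM on average at 1.13 and 0.756. Genes of the immunoglobulin chains were not analysed here.

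Cytoplasmic B lineage proteins lay lower and closer together. All 14 genes found of this list stood between 23.5 and 323 FPKM on average, with a median of 162. Ly86, the partner of the Toll-like receptor homologue Cd180, was highest at 312 and 334, then the inhibitory adaptor Dok3 at 331 and 264 and the Src family kinase Blk at 267 and 263. The scaffold Bank1 was at 209 and 207 and the adaptor Blnk at 159 and 177. Vpreb3, known from pre-B cells, was at 156 and 154, well above the other progenitor genes given further on. Cd2ap was lowest at 21 and 26.

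The transcription factors of the lineage were all above 1 FPKM, and 29 of 33 stood at 10 FPKM or more, with a median of 67.4. Pou2af1, the B cell co-activator of octamer factors, was highest at 299.8 and 297. Spib, an Ets family factor of B cells, was at 290.3 and 269, and Ets1 itself was at 231 and 275, so that the ranges of these 2 factors overlapped. Irf8 was at 226 and 245 and Pax5, which maintains B cell identity, at 213 and 226. The factors that specify the lineage in the bone marrow were present at lower levels, with Tcf3 at 111 and 96.8, Ebf1 at 70.8 and 64.2 and Foxo1 at 51.9 and 51. Mef2c was at 76.1 and 77.3 and Bcl11a at 73.5 and 84.6. The repressors of differentiation Bach2 and Bcl6 stood at 25.2 and 25.6 and at 32.5 and 33.5. At the lower end, Zeb2 was at 4.36 and 4.23 and Bhlhe41, a factor of B-1 cells, was at 1.69 and 2.16.

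MHC class II genes stood among the highest of all. Cd74 had rank 2 of all ranked genes. The classical chain genes followed, with H2-Aa at 5404 and 5412 (mean 5408 ± 6.25, rank 6), H2-Ab1 at 3515 and 3638 (rank 25) and H2-Eb1 at 2452 and 2516 (rank 49). Each of these genes differed between the libraries by less than 6%. The 18 genes of the list together held 4.6% and 4.11% of the summed FPKM of the 2 libraries, with a median of 300.1 FPKM, and 12 stood at 100 or more.

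Genes of peptide loading were present as well. H2-DMb2, a chain of the peptide exchange factor DM, was at 637 and 624, and its near copy H2-DMb1 was at 265 and 292. Reads of such near-identical genes may have been split between them by the authors' counting, so their separate levels are uncertain. H2-Ob and H2-Oa, the chains of DO, which restrains DM in B cells, were at 573 and 586 and at 375 and 373. Ctss, the cathepsin that trims the invariant chain in B cells, was at 465 and 455, whereas Ctsl, which does so in thymic epithelium, was at 3.45 and 3.24. The thiol reductase Ifi30 was at 270.4 and 268 and the protease Lgmn at 88.7 and 88.4. Ciita, the co-activator that switches the class II genes on, was at 157 and 132. The subunits of the RFX complex, which binds class II promoters, were lower, with Rfx5 at 40.03 and 36.8, Rfxank at 13.1 and 10.8 and Rfxap at 8.8 and 9.65.

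The promoters of these genes were read from a RefSeq table of windows that run from 250 bases before to 50 bases after each gene's start (build GRCm38.p6). Of the 18 genes, 14 matched a window by symbol, while Cd74, H2-Ab1, Ciita and Rfxap did not. The Y box core, spelled GATTGG or CCAATC on the other strand and thus overlapping the CCAAT letters, was found in a window of 10 of these 14 genes, which was 71.4%. It was found in 20.7% of the 15184 ranked genes with a window and in 16.1% of all windows in the table. A high share was not particular to class II genes. The core was in 11 of 16 sterol and fatty acid synthesis genes and 18 of 31 proliferation genes, but in 9 of 57 ribosomal protein genes. The stretches around the match nearest the start are shown for the class II chain genes, so that the letters shared by the high genes and by the lower H2-Eb2 can be read. They run 5′ to 3′ along the gene. The H2-Eb1 stretch holds a further Y box core, spelled GATTGG, which is left in lower case and lies farther from the start. Capitals mark the match nearest the start:
H2-Aa (chr17:34287837-34287902, minus strand): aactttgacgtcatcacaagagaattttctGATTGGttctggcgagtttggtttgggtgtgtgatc
H2-Eb1 (chr17:34305802-34305867, plus strand): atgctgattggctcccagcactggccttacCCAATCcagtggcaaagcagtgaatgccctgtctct
H2-DMb2 (chr17:34145128-34145193, plus strand): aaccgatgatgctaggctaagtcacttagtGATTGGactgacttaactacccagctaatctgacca
H2-Ob (chr17:34238817-34238882, plus strand): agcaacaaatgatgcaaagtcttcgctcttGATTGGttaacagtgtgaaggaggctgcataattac
H2-Oa (chr17:34092305-34092370, plus strand): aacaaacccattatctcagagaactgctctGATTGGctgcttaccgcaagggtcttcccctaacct
H2-DMb1 (chr17:34153099-34153164, plus strand): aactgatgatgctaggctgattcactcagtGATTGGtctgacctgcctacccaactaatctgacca
H2-DMa (chr17:34125289-34125354, plus strand): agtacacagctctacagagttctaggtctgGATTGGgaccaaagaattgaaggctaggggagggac
H2-Eb2 (chr17:34325544-34325609, plus strand): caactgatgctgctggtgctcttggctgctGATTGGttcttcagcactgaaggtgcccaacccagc
The first capital lay 49 bases before the start of H2-Aa, 44 before that of H2-Oa, 58 before that of H2-Ob and 199 before that of H2-DMa. H2-Eb2, whose window also held a match, stood at 68.8 and 68.8 FPKM, far below H2-Aa, so the letters were shared by genes of very different level. Windows of Ctss, Ifi30, Lgmn and Ctsl held no such letters. A match describes letters in a window and is not a measured binding site.

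MHC class I genes were also high. B2m, the light chain, was at 2144 and 2889, and the heavy chains H2-K1 and H2-D1 were at 1493 and 1452 and at 1186 and 1222. Heavy chain genes are near copies, and their separate levels are uncertain for the same reason as those of DM. Of 18 genes on the list, 15 stood at 100 FPKM or more, with a median of 186. The immunoproteasome subunits Psmb8, Psmb9 and Psmb10 were at 239 and 255, at 187 and 208 and at 108 and 98.8. The transporter chains Tap1 and Tap2 were at 137 and 126 and at 102 and 100.3, and the trimming peptidase Erap1 was lowest at 17.7 and 15.6. The Y box core was found in a window of 9 of the 17 class I list genes with one.

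Receptors that place B cells in the follicle spanned a wide range, with a median of 40.3 FPKM over 26 genes. Cxcr4 was at 211 and 292, and Cxcr5, the receptor for the follicular chemokine, was at 163 and 123. Ccr7, the receptor for T zone chemokines, was at 133 and 148, and Ccr6 was at 97.4 and 93.1. The sphingosine phosphate receptor S1pr1, by which lymphocytes leave tissue, was at 97.6 and 100.1, above S1pr4 at 73.2 and 59.8 in both libraries. S1pr2, the receptor of germinal centre cells, was at 2.43 and 4.87, and S1pr3, of marginal zone cells, was at 2.45 and 3.51. The oxysterol receptor Gpr183 was at 35.2 and 47.1 and the cannabinoid receptor Cnr2 at 94.2 and 81.9.

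Integrin chains followed the same division into high and low members. Itgb7 was at 136 and 127, Itgb2 at 72.8 and 66.6 and Itgal, the alpha chain of LFA-1, at 66.5 and 62.8. Itgam and Itgax, the alpha chains of myeloid cells, were at 2.37 and 1.56 and at 1.18 and 1.1. Itgal exceeded Itgam 28.1-fold in replicate 1 and 40.4-fold in replicate 2. Ccr9 and Ccr10, the homing receptors of gut and skin, were at 1.09 and 0.686 and at 0.0617 and 0.088, and both were under 1 FPKM on average.

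Among survival and costimulation genes, the BAFF receptor stood apart from its relatives. Tnfrsf13c, which encodes it, was at 249 and 220.3, and Tnfrsf13b, which encodes TACI, was at 74.7 and 55. Tnfrsf17, which encodes the plasma cell receptor BCMA, was at 0.386 and 0.528. Tnfrsf13c held 76.8% and 79.9% of the summed FPKM of the 3 receptors. Ltb, the membrane lymphotoxin chain, was the highest gene of the list at 745 and 634. Icosl was at 217 and 193, Cd40 at 95.5 and 95.4 and Cd83 at 156 and 189.7. Cd86, a costimulator that B cells induce on activation, was at 9.71 and 10.9, and Fas was at 5.13 and 9.18.

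Cytokine receptor chains were led by the shared gamma chain, Il2rg, at 321 and 278. Its partners Il21r and Il4ra were at 157 and 145 and at 106 and 102, and Il10ra was at 97.8 and 76.9. Il9r was at 50.2 and 43.5 and Il5ra at 12.3 and 11.5. The chains Il7r and Il2ra, of progenitors and of activated cells, were at 4.9 and 4.13 and at 0.978 and 1.05, and Kit was at 0.284 and 0.119. Of the 24 chains, 14 stood at 10 FPKM or more and 2 were under 1.

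Toll-like receptors divided in the same way. Unc93b1, the chaperone of the endosomal receptors, was at 371 and 369.9, and Cd180 was at 114 and 109. The highest receptor proper was Tlr1 at 71 and 66.6. Tlr9, which senses CpG DNA, was at 30.9 and 25.7, and Tlr7, which senses single-stranded RNA, was at 14.7 and 12.3. Tlr4 was at 5.72 and 4.78 and Tlr2 at 4.73 and 3.79. Tlr5, Tlr8, Tlr11 and Tlr13 were each under 0.2 FPKM in both libraries, and Cd14, the co-receptor for lipopolysaccharide on myeloid cells, was at 0.545 and 0.145. The adaptor Myd88 was at 28.3 and 28.6.

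The antigen receptor pathway was present along its whole length. Its 34 genes had a median of 65.2 FPKM, and 32 stood at 10 FPKM or more. Below the receptor chains, the kinase Syk was highest at 238 and 224. The adaptors Grb2 and Blnk were at 158 and 183 and at 159 and 177. Plcg2, the phospholipase that Btk and Blnk activate, was at 121 and 107, and Btk was at 110.0 and 108. Malt1 and Bcl10, which carry the signal to NF-kB, were at 63.3 and 66.2 and at 57.6 and 64.1. The calcium sensor Stim1 was at 23.1 and 21.2 and the channel Orai1 at 12.8 and 10.02. Vav3 and the exchange factor Sos1 were lowest at 3.69 and 3.7 and at 3.85 and 4.34.

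Inhibitors of the receptor were present beside its effectors. The 19 inhibitor genes found had a median of 78.3 FPKM, and 16 stood at 10 FPKM or more. Ptpn6, which encodes the phosphatase SHP-1, was at 545 and 497. Cd22, a sialic acid receptor that recruits it, was at 505 and 431, and Cd72 was at 355 and 391. Csk, the kinase that keeps Src kinases off, was at 366 and 337, and Siglecg was at 263 and 217. Btla was at 170.0 and 201, and Fcgr2b, the inhibitory Fc receptor, was at 111 and 117. Inpp5d, the lipid phosphatase SHIP, was at 81.9 and 74.7. Cd5, the inhibitor of T and B-1 cells, was at 7.93 and 6.69, and Pdcd1 was at 0.816 and 0.993.

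**Figure D3:**
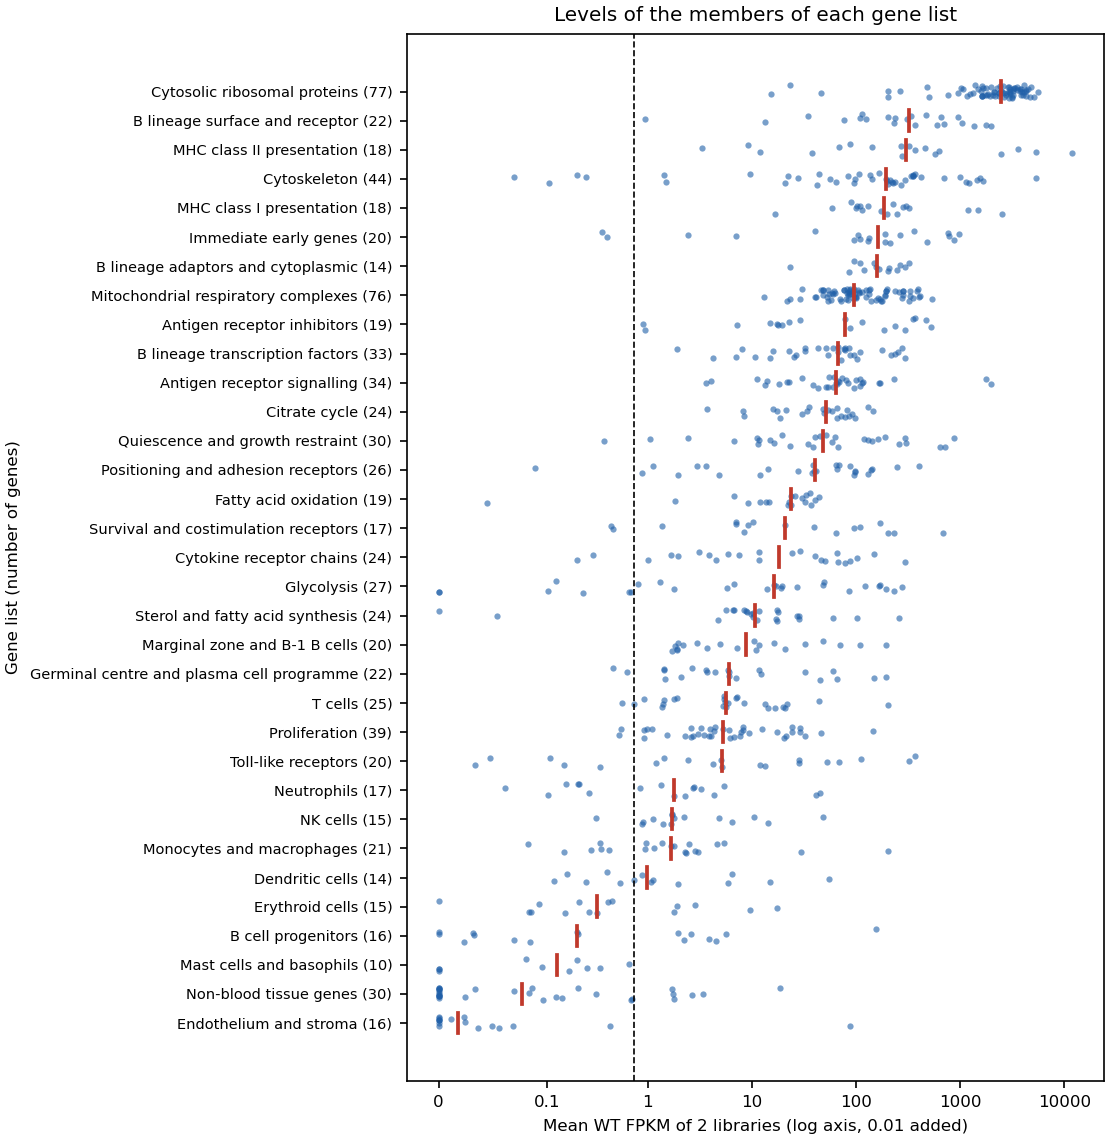
Mean WT FPKM (log axis, 0.01 added) of every member of 33 gene lists, 1 point a gene, with the number of genes in parentheses, the median of each list as a red bar and the median of all ranked genes (0.733 FPKM) as a dashed line. Ribosomal, MHC and B lineage lists lie to the right, and lists of B cell progenitors, mast cells, stroma and non-blood tissues lie to the left of the dashed line.

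Families of related genes differed in how far their highest member stood above the rest. In 41 families compared, without the Ets family, the member with the highest level was the same in both libraries in 41, and in 40 its 2 values did not overlap with those of the next member. In 15 families it held over 90% of the family's summed FPKM in both libraries. The exception to the separation was the phosphofructokinases, where Pfkp at 19.7 and 19.2 and Pfkl at 19.7 and 18.4 could not be ordered.

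Kinases of receptor signalling were unequal. Of the Src family kinases, Blk stood at 267 and 263 and Lyn at 121 and 113, a ratio of 2.2 and 2.34. Lck was at 49.4 and 40.4, Fyn at 25.4 and 24.6 and Fgr at 14.5 and 14. These 5 kinases, which are not the whole family, stood in the same order in both libraries. Yes1 and Src were under 1 FPKM at 0.4001 and 0.445 and at 0.205 and 0.117. Of the Tec kinases, Btk at 110.0 and 108 was followed by Tec at 70.7 and 65, and Txk, of T cells, was at 3.32 and 2.53, with Bmx at 0.0503 and 0.0191. Pik3cd, the lymphocyte PI3K catalytic subunit, was at 117 and 105, more than 6-fold above Pik3cg at 17.8 and 16.3. Pik3ca was at 10.7 and 10.9 and Pik3cb at 0.545 and 0.65. Plcg2 exceeded Plcg1 (11.4 and 9.9) 10.6-fold and 10.8-fold. Of the protein kinase C genes, Prkcd was at 116 and 99.7 and Prkcb at 84.1 and 77.4, and Prkce was at 13 and 12.1. Prkci, Prkca, Prkcq, Prkch and Prkcz were between 2.73 and 5.4 FPKM on average.

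Ets family factors were listed after these data had been seen, since Ets1 is the gene that the study addresses. Of 26 members, 17 were above 1 FPKM and 9 below it. Spib stood at 290.3 and 269 and Ets1 at 231 and 275. Sfpi1, an older symbol for Spi1, which encodes PU.1, was at 102 and 90.5. Elf1 was at 65.6 and 67.5 and Fli1 at 53.9 and 62.9, followed by Elf4 at 41.7 and 36.7, Elf2 at 37.1 and 38.8, Elk4 at 28.5 and 31.2 and Etv3 at 28.4 and 28.4. Elk3, Gabpa and Ets2 were between 12.3 and 16.3 FPKM on average, and Elk1, Etv6, Erf, Etv5 and Spic between 2.4 and 7.5. Spib and Ets1 overlapped, so the 2 leading members could not be ordered. Ets2, the closest relative of Ets1, was at 12.7 and 12, below Ets1 in both libraries. The epithelial members Ehf, Elf3 and Spdef, and Etv1, Etv2, Etv4 and Erg, were under 0.2 FPKM in both libraries, and Elf5 and Fev were listed at 0.

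Other transcription factor families had their own leaders. Nfatc1 was at 69.3 and 65.8 and Nfatc3 at 49.3 and 48.1, above Nfat5 at 12.4 and 14.7 and Nfatc2 at 6.3 and 7.06, and Nfatc4 was at 0.0492 and 0.021. Of the Ikaros family, Ikzf3 (Aiolos) at 180.5 and 179 exceeded Ikzf1 at 109 and 112. Ikzf5 was at 11.6 and 11.3, and Ikzf2 and Ikzf4 were at 0.326 and 0.45 and at 0.0695 and 0.0396. Of the STAT genes, Stat6, Stat3, Stat2, Stat5b, Stat4 and Stat5a were between 14.4 and 88 FPKM on average, in that order and with no overlap between neighbours. Jak1 was at 139 and 128 and Jak3 at 42.6 and 43.8, while Tyk2 and Jak2 overlapped at 28.2 and 26.3 and at 27 and 26.2.

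The BCL2 family was led by a protector. Mcl1, which resting lymphocytes need, was at 236 and 263, and Bcl2 was at 28.7 and 27.9. Bcl2l1 was at 3.25 and 3.11 and Bcl2l2 at 5.27 and 5.25. Of the effectors, Bax was at 89.7 and 103 and Bak1 at 27.3 and 26.4. Of the triggers, Bid was at 37.3 and 40.3, Bcl2l11 (Bim) at 9.58 and 9.52, Bmf at 12.7 and 9.73, Bad at 7.71 and 9.72 and Bbc3 (Puma) at 2.7 and 3.4, while Pmaip1 was the widest between the libraries. The A1 genes Bcl2a1b, Bcl2a1d and Bcl2a1a, which are near copies with uncertain separate levels, were at 27.6 and 37.1, at 3.73 and 5.47 and at 0.317 and 0.226. In the family of CD20, Ms4a1 stood 5.02-fold and 5.12-fold above Ms4a4c at 127 and 132. Ms4a6b, Ms4a4b and Ms4a6c were between 22.3 and 33 FPKM on average, and Ms4a7, Ms4a2, Ms4a6d and Ms4a3 were under 1.

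**Figure D4:**
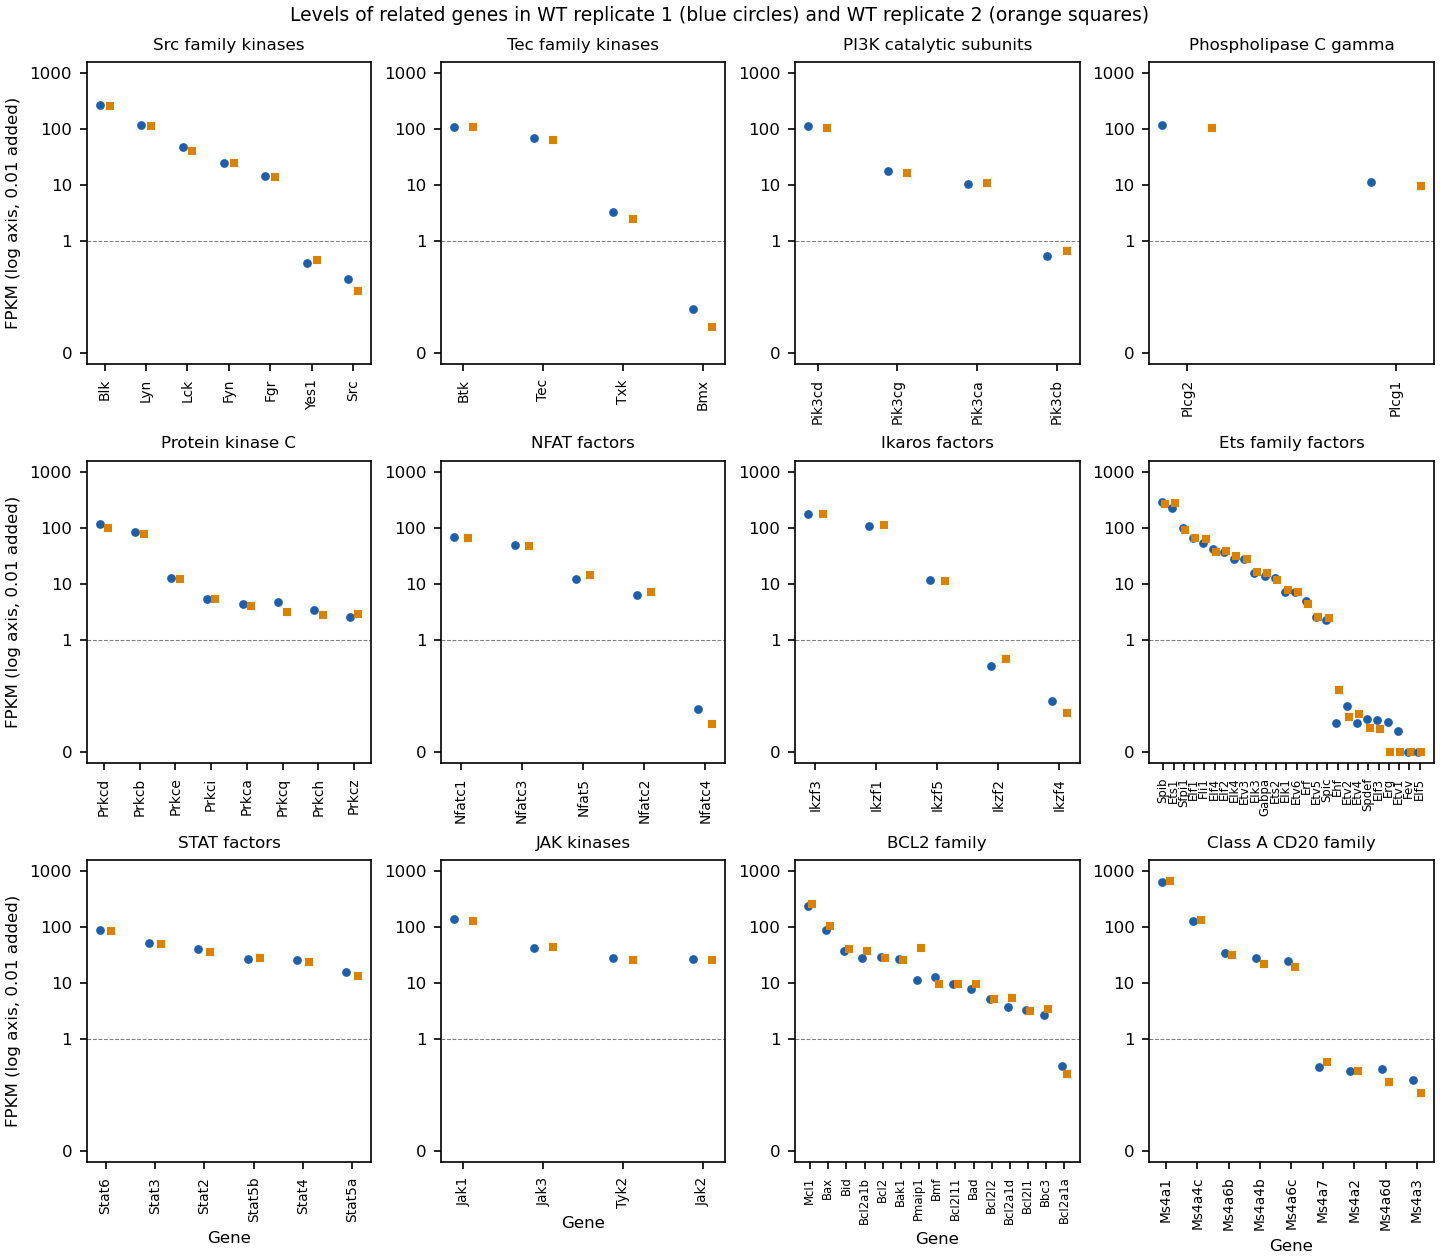
FPKM (log axis, 0.01 added) of members of 12 families of related genes in WT replicate 1 (blue circles) and WT replicate 2 (orange squares), ordered by mean level, with 1 FPKM as a dashed line. In each family the same member leads in both libraries or, for Spib and Ets1, the 2 leading members overlap.

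Genes that restrain growth had a median of 48.3 FPKM, and 11 of 30 stood at 100 FPKM or more. Of the 30, 19 were higher in replicate 2, beside 4886 of the 9970 genes with a mean of at least 1 FPKM. Zfp36 and Btg2 are also on the list of immediate early genes given next. Zfp36, which promotes decay of inflammatory mRNAs, was at 774 and 981, and Tsc22d3, the glucocorticoid-induced leucine zipper, was at 578 and 857. Klf2, a factor of quiescent lymphocytes, was at 414 and 866, a wide gap between libraries. Zfp36l1 was at 247 and 357 and Btg1, an anti-proliferative gene, at 233 and 359. Txnip, an inhibitor of glucose uptake, was at 265 and 252. Of the cell cycle inhibitors, Cdkn1b (p27) was at 51.8 and 67.7, far above Cdkn2c at 5.57 and 7.92, Cdkn1a (p21) at 1.15 and 0.941 and Cdkn1c at 0.359 and 0.394. Of 30 genes on this list, 26 stood at 10 FPKM or more.

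Immediate early genes, which cells transcribe within minutes of a stimulus, were also high, and 18 of 20 were higher in replicate 2, beside 4886 of the 9970 genes with a mean of at least 1 FPKM. Fos was at 687 and 1283, Junb at 654 and 898 and Jun at 549 and 991. Dusp2 was at 332 and 394, Egr1 at 132 and 250.2 and Nr4a1 at 70.8 and 141. The list's summed level was 4476 and 7018 FPKM, and its median difference was 0.746 on the log2(FPKM + 1) scale. Egr2 was at 4.86 and 9.2 and Nr4a2 at 0.1996 and 0.607. What moved these genes between the libraries was not tested, and the absolute levels of this list carry that spread. Myc stood at 72.5 and 120.5 and its partner Max at 66.1 and 64.7. Of the other members of the network, Mxd4 was at 33.6 and 34.4, Mnt at 19.1 and 17.5, Mga at 12 and 11.5 and Mxi1 at 2.91 and 3.09, while Mycl1 and Mycn were at 0.242 and 0.13 and at 0.0392 and 0.0112.

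Genes of cell division were low but not absent. The 39 proliferation genes had a median of 5.36 FPKM, 23 were between 1 and 10, and 5 were under 1. The highest were genes of DNA replication, with Pcna at 122 and 168, the licensing factor Cdt1 at 46.2 and 47.4 and the helicase subunit Mcm7 at 31.4 and 34. Genes of mitosis were lower. Mki67, the marker of cycling cells, was at 3.01 and 5.81, Top2a at 5.78 and 9.89, Ccnb1 at 2.42 and 4.54 and Cdk1 at 1.52 and 3.1. Of the 39 genes, 37 were higher in replicate 2, beside 4886 of the 9970 genes with a mean of at least 1 FPKM. The median difference of the list was 0.408 on the log2(FPKM + 1) scale. The list's median was 3.84 FPKM in replicate 1 and 5.9 in replicate 2. Of the cyclins that drive entry into the cycle, Ccnd3 was at 40.9 and 41.4, above Ccnd2 at 11.9 and 11.1 and Ccnd1 at 1.1 and 0.671. Of their partners, Cdk4 was at 79.5 and 81.2 and Cdk6 at 3.6 and 3.3.

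The protein synthesis machinery took the largest share of the summed FPKM of any list. The 77 cytosolic ribosomal protein genes held 28.6% and 33.3% of the summed FPKM of the 2 libraries, with a median of 2444 FPKM. All 77 were higher in replicate 2, beside 4886 of the 9970 genes with a mean of at least 1 FPKM. Rplp1 was highest at 4540.0 and 6688 (rank 5), then Rps29 at 3590.2 and 6726, Rps12 at 4216 and 5347, Rps15 at 4075 and 5277 and Rps20 at 3760.4 and 5291. Rps28, Rpl39, Rps21, Rpl38, Rps18, Rps16 and Rpl12 completed the ribosomal genes among the 20 highest of all, with means from 3908 to 4313 FPKM. Gm9846 stood at rank 1 with 9653 and 15888. RefSeq gives it the synonym Rps27rt, a near copy of Rps27, which was at 45.2 and 363, so reads may have been split between them and neither level can be relied on alone.

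A few ribosomal protein genes were far below the rest. Rpl34 was at 11.1 and 19.7, Rpl26 at 21.1 and 25.8 and Rpl30 at 41 and 52.6, and the next lowest, Rps15a, was at 173 and 232. Ribosomal protein genes have many near-identical copies in the genome, between which the authors' counting may have split reads, so single levels in this group are uncertain.

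Translation factors accompanied the ribosome. Eef1a1, which brings aminoacyl-tRNA to the ribosome, was at 6762 and 7336 (mean 7049 ± 406, rank 3). Tpt1 was at 5155 and 6846 (rank 4), and Tmsb4x, an actin-binding peptide, was at 4478 and 6271 (rank 7). Fau, a fusion of a ubiquitin-like protein and a ribosomal protein, was at 3617 and 4586. Eef2 was at 1398 and 1479.8. The second isoform of the elongation factor, Eef1a2, of nerve and muscle, was listed at 0 in both libraries. Eif4e, which binds the mRNA cap, was low beside them at 23.8 and 25.3. Genes of ribosome production were lower than the ribosome itself, with a median of 41.5 FPKM over 16 genes, led by Npm1 at 468 and 577 and Fbl at 130.0 and 152, and Polr1b, a subunit of RNA polymerase I, was lowest at 12.9 and 10.9.

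Promoter windows of the ribosomal genes often held the letters of an Ets site. The ETS core, spelled CCGGAAG or CTTCCGG on the other strand, was found in a window of 24 of the 57 ribosomal protein genes with one, which was 42.1%. It was found in 13.3% of ranked genes with a window and in 8.86% of all windows. The stretches around the match nearest the start are shown for 4 high genes and for the low Rpl26 and Rpl34, because the same letters occur in both. They run 5′ to 3′ along the gene, and capitals mark the ETS core:
Rps21 (chr2:180257323-180257389, plus strand): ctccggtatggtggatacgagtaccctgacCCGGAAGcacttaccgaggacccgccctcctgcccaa
Rpl38 (chr11:114668530-114668596, plus strand): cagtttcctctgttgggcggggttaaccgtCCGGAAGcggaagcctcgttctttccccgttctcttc
Rps18 (chr17:33955704-33955770, minus strand): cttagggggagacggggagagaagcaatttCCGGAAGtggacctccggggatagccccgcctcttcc
Rpl41 (chr10:128549188-128549254, minus strand): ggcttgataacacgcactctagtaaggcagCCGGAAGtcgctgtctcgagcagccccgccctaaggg
Rpl26 (chr11:68901540-68901606, plus strand): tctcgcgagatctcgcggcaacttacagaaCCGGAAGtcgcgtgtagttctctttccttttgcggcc
Rpl34 (chr3:130730303-130730369, minus strand): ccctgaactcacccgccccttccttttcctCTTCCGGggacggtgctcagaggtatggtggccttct
Rps21 and Rpl38 stood at 3522 and 5027 and at 3169 and 5099 FPKM, Rps18 and Rpl41 at 3642 and 4589.9 and at 2957 and 4667. The windows of the 16 B lineage surface genes with one held no ETS core, beside the share of 13.3% in ranked genes. Whether these genes differ from that share was not tested. The core contains a CpG, and the median number of CpG was 4 in their windows and 21 in those of the ribosomal protein genes. The study reports Ets1 binding sites near Cd79a, which is on the B lineage surface list. A window without these exact letters is therefore not evidence that Ets1 does not bind the gene.

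Across all ranked genes the share of windows with the ETS core differed by level. It was 1.96% of the 4342 windows of genes listed at 0, 4.84% for genes above 0 and under 1 FPKM, 15.5% from 1 to 10, 22.2% from 10 to 100 and 18.1% from 100 to 1000. Of the 87 windows of genes at 1000 FPKM or more, 25.3% held it. Of the 100 genes in that class, with or without a window, 67 encoded cytosolic ribosomal proteins. Its share is therefore not separate from that of the ribosomal list above, and the share without them was not counted. The letters contain a CpG, and the median number of CpG in a window moved with level as well, from 3 in genes listed at 0 to 22 in genes from 10 to 100 FPKM. The share of each in the pattern was not tested. TATAAA, on either strand, ran the other way, from 24.9% of windows of genes listed at 0 to 5.73% from 10 to 100 FPKM, and was 13.8% at 1000 or more. Without olfactory and vomeronasal receptors, genes listed at 0 had 3187 windows. Of these, 19.4% held TATAAA and 2.67% the ETS core, and the median number of CpG was 5. Promoter windows of 1 gene can overlap, and windows of a level class are not independent.

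**Figure D5:**
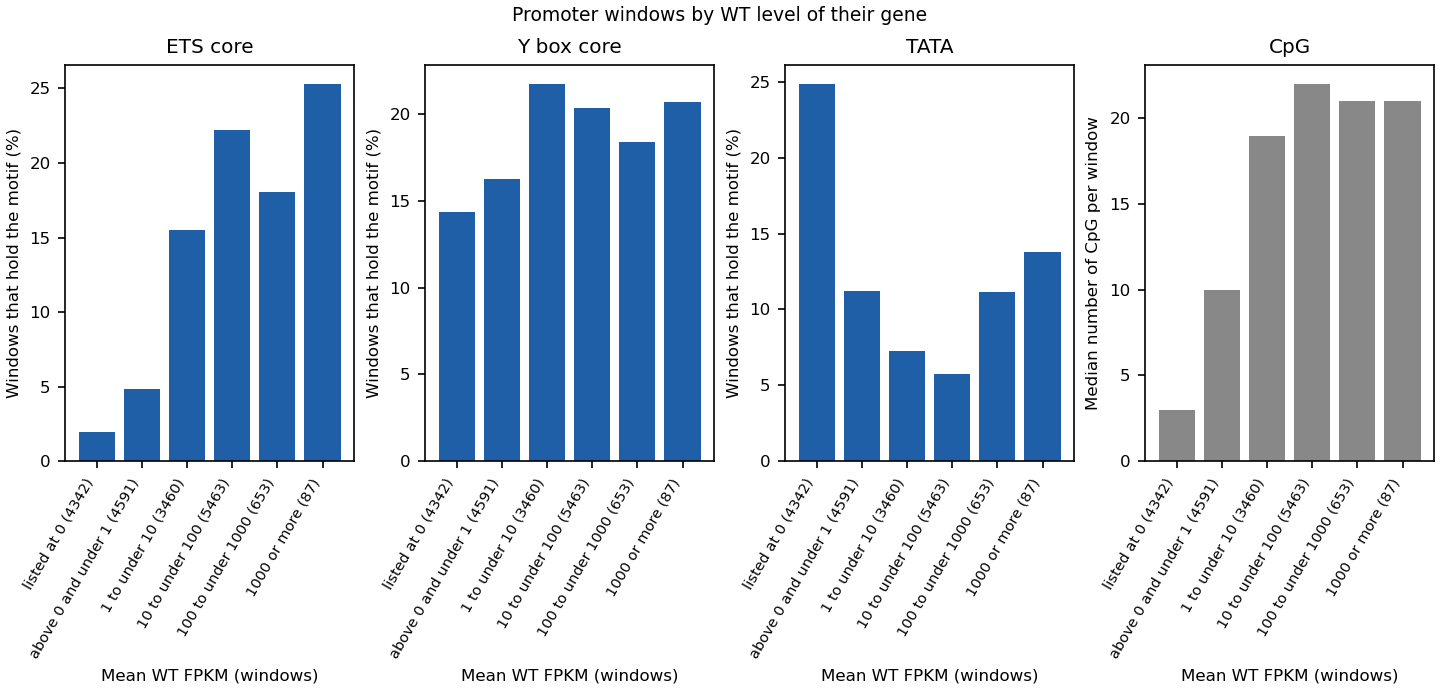
Percent of promoter windows that hold the ETS core, the Y box core or TATAAA, and the median number of CpG in a window, as bars from 0 by the mean WT FPKM of the gene, with the number of windows of each class in parentheses. The ETS core was in 1.96% of windows of genes listed at 0 and in 22.2% of those from 10 to 100 FPKM, and CpG number moved the same way.

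RNA of the listed respiratory complex genes was present throughout the list. All 76 genes on it stood at 10 FPKM or more, with a median of 97.2 FPKM and 36 at 100 or more. The highest were the ATP synthase subunit Atp5e at 459 and 629, the complex III subunit Uqcrh at 355 and 467 and the complex IV subunit Cox4i1 at 387 and 413. The catalytic ATP synthase subunit Atp5b was at 393 and 395. Ndufa11 was lowest at 13.3 and 13.2, and Cycs, which encodes cytochrome c, was at 19.1 and 24.6. Of the 76 genes, 69 were higher in replicate 2, beside 4886 of the 9970 genes with a mean of at least 1 FPKM. Short genes outside the ribosome were also higher there, among those with a mean of at least 10 FPKM. Their median log2 ratio was 0.318 under 500 bases of exon and 0.197 from 500 to 1000. The part of transcript length in the count was not tested. The citrate cycle genes had a median of 51.5 FPKM, led by Mdh2 at 147 and 145, Idh3g at 135 and 128 and Idh3b at 101.2 and 96.3. The cytosolic Idh1 was lowest at 3.78 and 3.68.

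Several steps of glycolysis had 1 isoform far above its relatives. Aldoa was at 284 and 272, 41.8-fold and 57-fold above Aldoc at 6.8 and 4.77. Gapdh was at 224 and 243 and Pkm at 189 and 199. Ldha was at 163 and 173, and Ldhb at 0.735 and 0.887. Eno1 was at 121 and 124. The steps of entry were lower, with the glucose transporters Slc2a1 at 27.6 and 27.1 and Slc2a3 at 16.2 and 17. Hk1, the hexokinase of most tissues, was at 17.1 and 16.9, and Hk2, which growing cells induce, was at 1.78 and 1.8. In the pentose phosphate pathway Taldo1 was highest at 150.4 and 169, then Pgls at 143 and 132 and Tkt at 86.4 and 83.8. G6pdx, the first enzyme, was at 18.3 and 18.8, and its retrogene G6pd2 was listed at 0.

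Lipid and amino acid pathways were lower. Fatty acid oxidation had a median of 24 FPKM over 19 genes, led by Etfb at 43.1 and 45.5, Hadhb at 41.2 and 40.8 and Hadha at 36.2 and 38.1. Cpt1a, which admits fatty acids to mitochondria, was at 35.9 and 29.7, while the muscle and brain forms Cpt1b and Cpt1c were at 1.88 and 1.83 and at 0.0181 and 0.0207. Sterol and fatty acid synthesis had a median of 10.8 FPKM over 24 genes. Of these, 4 were higher in replicate 2, beside 4886 of the 9970 genes with a mean of at least 1 FPKM. Scd1, a fatty acid desaturase, stood far above the others at 247 and 275, followed by the regulator Srebf2 at 114 and 92.4 and by Acly at 65.3 and 56.1. Hmgcs1, an early enzyme of sterol synthesis, was listed at 0 in both libraries, although cells that make sterols use it, so that a listed 0 can be a failed estimate. The glutamine transporter Slc1a5 was at 155 and 140.1, Slc38a2 at 56.4 and 65 and Glud1 at 55.8 and 61.2. The liver glutaminase Gls2 was at 0.0208 and 0.178. Tyms, which makes a DNA precursor, was at 1.23 and 1.83.

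The actin cytoskeleton was among the highest groups, with a median of 197 FPKM over 44 genes. After Tmsb4x stood Pfn1 at 1677 and 1639, Actb at 1598 and 1519 and Coro1a, of blood cells, at 1481 and 1436. Cfl1 was at 1114 and 1173, and its muscle relative Cfl2 at 9.8 and 9.47. Rac2, the blood cell Rac, was at 357 and 344, above Rac1 at 80.6 and 89.1. Myh9 was at 171 and 161 and Myh10 at 0.0929 and 0.117. Lmnb1 was at 19.1 and 25.9 and the A-type lamin Lmna at 1.71 and 1.15. The muscle actins Acta1, Acta2 and Actc1 were each under 0.3 FPKM in both libraries.

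Programmes of other B cell states were present at low and unequal levels. The 22 genes of the germinal centre and plasma cell list had a median of 6.01 FPKM. Mzb1, a chaperone of antibody secretion, was highest at 175 and 215, then Il21r, which resting B cells also carry, and Igj, the joining chain, at 63.6 and 67.2. Irf4 was at 47.3 and 73.4 and Xbp1 at 49.2 and 42.4. Prdm1, which encodes the regulator Blimp1, was lower at 0.58 and 0.672, and Sdc1, of plasma cells, was at 7.11 and 5.13. The marginal zone and B-1 list had a median of 8.91 FPKM, led by Mzb1, Cr2 (part of the gate) and Dtx1 at 63.6 and 78.9. Notch2 was at 48.3 and 48.2, Cd1d1 at 20.3 and 22 and Cd9 at 9.31 and 11.7.

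Most progenitor genes were under 10 FPKM. Of 16 genes, 9 were under 1 FPKM, beside 10584 of all 20554 ranked genes, and 6 were between 1 and 10. The median was 0.203, beside 0.733 over all ranked genes. Vpreb3 at 156 and 154 stood far above the others, and Lef1 followed at 6.002 and 5.3. Rag1 and Rag2, the recombinase genes, were at 0.0654 and 0.0207 and at 0.0147 and 0, and Dntt was at 0.195 and 0.215. Vpreb1 was at 0.0832 and 0.0475, and Vpreb2 and Igll1, of the surrogate light chain, were listed at 0 in both libraries. Cd93, which marks transitional B cells, was at 2.96 and 2.28.

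Markers of T and NK cells were measured at unequal levels. Of 25 T cell genes, 3 were under 1 FPKM, beside 10584 of all 20554 ranked genes. Cd2, which mouse B cells also express, was highest at 189.8 and 219. Lck was at 49.4 and 40.4, Cd3g at 22.8 and 16.9, Cd3e at 7.62 and 6.67, Cd4 at 6.02 and 4.88 and Cd8a at 6.88 and 5.11, with no T cell gene listed at 0. The summed level of the T cell list was 428 and 418 FPKM, and that of the 15 NK cell genes was 109.6 and 87.6, led by Ccl5 at 52 and 45, Nkg7 at 15.6 and 13.2 and Gzma at 14.1 and 6.87. Ncr1, a defining NK receptor, was at 2.42 and 0.957.

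Most monocyte and macrophage markers were higher in replicate 1. Of 21 monocyte and macrophage genes, 2 were higher in replicate 2, beside 4886 of the 9970 genes with a mean of at least 1 FPKM. Of the 21, 8 were under 1 FPKM, beside 10584 of all 20554 ranked genes. The list's median was 2.35 FPKM in replicate 1 and 0.999 in replicate 2. Apoe was highest at 193 and 219, then Lyz2 at 42.2 and 18 and Cd68 at 5.72 and 5.13, and the defining genes Csf1r and Cd14 were at 2.35 and 0.999 and at 0.545 and 0.145. The summed level of the list was 278 and 259.9 FPKM. The neutrophil list summed to 124 and 100.8, led by S100a9 at 51.3 and 39, S100a8 at 43.9 and 39.2 and Ngp at 5.84 and 5.06, with 7 of 17 genes under 1. The dendritic cell list summed to 93.4 and 87.2, of which Bst2 gave 57.1 and 54.1, Tcf4 14.3 and 15.5 and Klrd1 6.81 and 6.31, and 7 of 14 genes were under 1, among them Clec9a at 0.156 and 0.0781 and Zbtb46 at 0.533 and 0.543. The share of these transcripts that came from cells other than B cells was not tested.

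Markers of erythroid, megakaryocytic, mast and stromal cells were near 0. Of 15 erythroid genes, 10 were under 1 FPKM, beside 10584 of all 20554 ranked genes. The highest were Tfrc at 16.7 and 18.5, Car2 at 9.32 and 10.2 and Hbb-b1 at 2.89 and 2.79. The list summed to 35.3 and 36.6 FPKM. Of 11 platelet and megakaryocyte genes, which summed to 10.6 and 8.59, 9 were under 1, with Itgb3 at 8.34 and 5.99, Gp1ba at 1.08 and 1.52 and Itga2b at 0.581 and 0.472 the highest. All 10 mast cell and basophil genes were under 1 and summed to 2.39 and 1.15, with Fcer1a, Mcpt4 and Tpsb2 listed at 0. Hdc, Cma1 and Ms4a2 were the highest of them, at means from 0.253 to 0.661. Of 16 genes of endothelium and stroma, which summed to 92.8 and 83.4, Pecam1 gave 92.3 and 82.8 and is also a B cell inhibitor on another list. The other 15 were under 1, with Cdh5 and Madcam1 next at 0.41 and 0.453 and at 0.0386 and 0.044, and Col1a2, Col3a1, Dcn, Pdgfra, Cldn5, Ccl19 and Ccl21a were listed at 0.

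Genes of tissues outside the blood were silent with a few exceptions. Of 30 such genes, 24 were under 1 FPKM, beside 10584 of all 20554 ranked genes. Of the 30, 12 were listed at 0, among them Alb of liver, Ins2 of pancreatic islets, Gfap of astrocytes and Myh6 of heart. Mbp, known from myelin, was highest at 18.6 and 18.7, and its locus also makes transcripts in blood cells. Gh was at 3.69 and 3.1 and Krt14 at 4.87 and 0.533, a wide gap between libraries, and Krt5 moved with it at 3.12 and 0.337.

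Large sensory and structural families were part of the silent end. Over all ranked genes, 5382 of 20554, or 26.2%, were listed at 0 in both libraries. Of 1087 olfactory receptor genes, 1041 were listed at 0 in both libraries and 4 had a mean of at least 1 FPKM, led by Olfr613 at 7.36 and 10.2. Of 200 type 1 vomeronasal receptors, 193 were listed at 0, with Vmn1r58 highest at 7.98 and 11.1, and of 120 type 2 receptors 110 were. All 48 keratin-associated protein genes, all 15 trace amine receptors and all 20 secretoglobins were listed at 0. Of 42 beta-defensin genes, 41 were at 0. Of 39 homeobox cluster genes, 14 were listed at 0, and Hoxb4 was highest at 1.91 and 1.72. Of 96 cytochrome P450 genes, 62 were at 0 and 11 had at least 1 FPKM, and Cyp4f18, of leukotriene metabolism, stood far above the others at 94.9 and 96.7. By contrast, 249 of 328 Zfp zinc finger genes had at least 1 FPKM and 15 were listed at 0.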

How the data were processed

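Total RNA of sorted splenic follicular B cells was made into libraries with an Illumina TruSeq RNA kit and sequenced on an Illumina HiSeq. The authors aligned reads with TopHat2 version 2.0.13 to mouse build mm9, per the submitters' processing notes, and the authors' deposited tables hold FPKM values per gene from Cuffdiff. The Cuffdiff version and the annotation are not given in the sources used here, nor is whether reads were counted by strand, so reads of overlapping and antisense genes cannot be told apart. Each table had 1 column of FPKM for 1 sample, and read totals were not in the files. The 2 Ets1-/- libraries were not used here.

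From 23309 entries, 732 with symbols starting Mir, Sno or Scarna and 4 with a repeated symbol were dropped. Protein-coding status came from GENCODE M1 (19537 entries), then from RefSeq symbols (927) and RefSeq synonyms (90). A further 27 entries whose symbol had been turned into a date could not be classed. Ranks were by the mean FPKM of the 2 libraries. Differences between libraries were taken as log2(FPKM + 1), a scale that understates the change of low genes. Exon lengths were those of GENCODE M1, for 95.1% of ranked genes. Gene lists (52 in all) and members were chosen with earlier results of these data known, and the Ets family list, the ribosomal protein symbols and the silent families were chosen after values had been seen. Genes named were the 20 highest, 5 markers, the 3 highest of each list and its defining members near 0, all members of the families, and the 10 with the widest gap between libraries; others were named after their values had been seen. Some genes that this rule would name are not reported here. Promoter windows were those of RefSeq (GRCm38.p6), with no coordinate moved between builds. Summaries were computed with Python 3.11.15, numpy 2.4.6 and pandas 2.3.3, and figures with matplotlib 3.10.9. The steps were tested on counts simulated for 19537 genes, where a relative depth of 1.5 was recovered as 1.49 from those of very low FPKM. The simulated counts carried counting noise only, so the test does not cover the wider scatter of low genes in the data. Alternatives left out each library, changed the average, the entries ranked, the level, the pseudocount and the weighting by length.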

Additional observations from a re-analysis of the deposited data

How the results depend on the processing

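No paired analysis was possible because 1 group was described and no groups were compared. The number of genes with a mean of at least 1 FPKM was 9958 to 9961 with either library left out, and from 9234 to 10614 with the level set at 2 or at 0.5 FPKM. The 100 highest genes held 43.9% to 48.8% of the summed FPKM with either library left out, and 31.1% where FPKM was multiplied by exon length, which weights fragments in place of transcripts. Ribosomal protein genes held 28.6% to 33.3% with either library left out and 19.2% by that weighting. The median rank percentile of the B lineage surface list was 98.97 to 99.01 with either library left out, and 99.07 when all entries were ranked. The count of genes that differed at least 2-fold between the libraries was 48, and it was 91 with a pseudocount of 0.1 and 25 among genes with a mean of at least 10 FPKM. The relative depth was 1.75 under each choice of low genes, although 28.8% of the 746 low genes lay within 0.05 of it on the log2 scale, so it is approximate. Of 52 list medians, 9 moved by more than 1 SD without WT replicate 1 and 10 without WT replicate 2. The SD comes from the same 2 libraries, so a move within 1 SD does not show that a median was stable. The median of the monocyte and macrophage list went from 1.68 to 0.999 FPKM without WT replicate 1. That is within 1 SD only because the libraries themselves lay far apart, at 2.35 and 0.999.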

Other observations

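The entry Rn45s, the precursor of ribosomal RNA, is not protein-coding and was left out of the ranking. It stood at 2294 FPKM in WT replicate 1 and at 597 in WT replicate 2. Lars2, a mitochondrial leucyl-tRNA synthetase, was also higher in replicate 1, at 1018 and 517.

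Paralogues of ribosomal proteins were unequal. Rpl36al was at 477 and 669.8 and Rpl22l1 at 177 and 378, the latter overlapping with Rpl22 itself at 215 and 315. Rps27l was at 53.6 and 66.3 and Rpl7l1 at 40.04 and 38.7. Rpl39l and Rpl3l were at 0.469 and 0.49 and at 0 and 0.0458, and Rpl10l was listed at 0 in both libraries.

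Several general genes of lymphocytes were high outside the lists. Cd52, a small surface glycoprotein, was at 1945 and 2368 (rank 56), Shisa5 at 1391 and 1320.0 and Ly6e at 1171 and 1154. The iron storage chains Fth1 and Ftl1 were at 1169 and 1272 and at 878 and 1065, and the chaperone Hspa8 was at 1323 and 1776. These genes were chosen after their values were seen.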
